A study of Populus trichocarpa with 18 samples.

Results

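The genes described here encode the cellulose synthase catalytic subunits of the secondary wall in Populus trichocarpa: CesA4 (POPTR_0002s25970.1), a pair of CesA7 copies (POPTR_0006s19580.1 and POPTR_0018s11290.1) and a pair of CesA8 copies (POPTR_0011s07040.1 and POPTR_0004s05830.1). They were chosen by identifier, 5 of the 40668 loci in the deposited count file, and all 5 were among the 23777 loci that passed the filter on low counts. Each is represented by its first gene model. The names CesA4, CesA7 and CesA8 come with the list of identifiers; the file itself does not pair identifiers with names, and no locus matched the RefSeq gene table used here, so gene positions, lengths and sequences are not given. Levels are therefore compared between conditions and not between genes.

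Cellulose synthases sit in the plasma membrane as rosette-shaped complexes that link glucose from UDP-glucose into the glucan chains of cellulose microfibrils. In Arabidopsis the complex of the secondary wall needs CESA4, CESA7 and CESA8 together, and loss of any one of these subunits collapses the xylem vessels. Secondary wall cellulose makes up much of wood, and SND1, a NAC domain transcription factor, is known in Arabidopsis as a master switch of secondary wall synthesis in fibres. The copies of CesA7 and of CesA8 in poplar are close paralogs, and the handling of reads that align to both copies of a pair is not given in the sources used here, so counts of single copies are uncertain.

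Protoplasts, cells freed of their walls, came from stem-differentiating xylem of greenhouse-grown P. trichocarpa and were transfected with polyethylene glycol. They received PtrSND1-B1, a poplar SND1 gene labelled as overexpressed, together with sGFP, a green fluorescent protein, or the control sGFP alone. Neither the promoter of the constructs nor the share of protoplasts transfected is given in the sources used. RNA was sequenced at 7, 12 and 25 h, which the labels call the transfection time. Each of the 6 groups (PtrSND1-B1 at 7, 12 and 25 h, sGFP at 7, 12 and 25 h) has 3 libraries, 18 in all. Nothing in the labels says whether these came from separate isolations. The p-values therefore set a difference against a spread between libraries that may be technical. In the fits that pair libraries, described below, it is the spread left after the pairing.

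First models held 2690853 to 13970708 counts per library, and the 5 CesA genes together took 0.00563 to 0.0742% of them, with 21 to 1475 counts of a gene in a library. The lowest count, 21, has an exact Poisson 95% interval of 13.0 to 32.1, which covers counting error only. Levels are in CPM, the usual per-library scaled count, with library sizes adjusted by TMM factors, edgeR's trimmed mean of M-values. The locus taken to be the transfected one, POPTR_0014s10060.1, had 418 to 3372 CPM in the PtrSND1-B1 libraries and 2.09 to 10.3 CPM in the sGFP libraries. It was identified in part by this difference, which therefore cannot check the labels, and its counts cannot tell plasmid-borne from chromosomal transcripts. Libraries of the same time and replicate number deviated together in all 9 pairs of PtrSND1-B1 and sGFP (r = 0.345 to 0.752), so pairs were also fitted as such. The labelled tissue was not checked against xylem markers here, since no identifier could be matched to a marker name.

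Across the 3 times, 4 of the 5 CesA genes stood higher with PtrSND1-B1 than with sGFP in each fit that pairs libraries by replicate number: CesA4, the CesA7 copy POPTR_0018s11290.1 and both CesA8 copies (adjusted p under 0.05 by edgeR; 0.463% of all genes tested were called higher with replicate number as a block and 3.91% with time and number paired). In the paired fit CesA8 POPTR_0004s05830.1 showed the largest fold of the 5, 2.36 times, followed by CesA8 POPTR_0011s07040.1 at 1.92, CesA4 POPTR_0002s25970.1 at 1.74 and CesA7 POPTR_0018s11290.1 at 1.55. The other CesA7 copy, POPTR_0006s19580.1, was 1.11 times as abundant with PtrSND1-B1 as with sGFP and passed the threshold of 0.05 on the adjusted p for this contrast in none of the fits and omissions run (lowest edgeR or DESeq2 adjusted p = 0.0988). Fitted with a block, the count of 4 called genes held in all 18 omissions of a library and all 9 omissions of a pair. The labels give no pairing, and without a block edgeR called 1 of the 5 higher (0.135% of all genes tested). DESeq2, also without a block, called 2 (0.233%). In the unpaired edgeR fit, 12 of 18 omissions of a library moved the count, within 0 to 2. In bulk RNA, fewer protoplasts expressing a gene and less RNA per protoplast cannot be told apart.

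**Figure D1:**
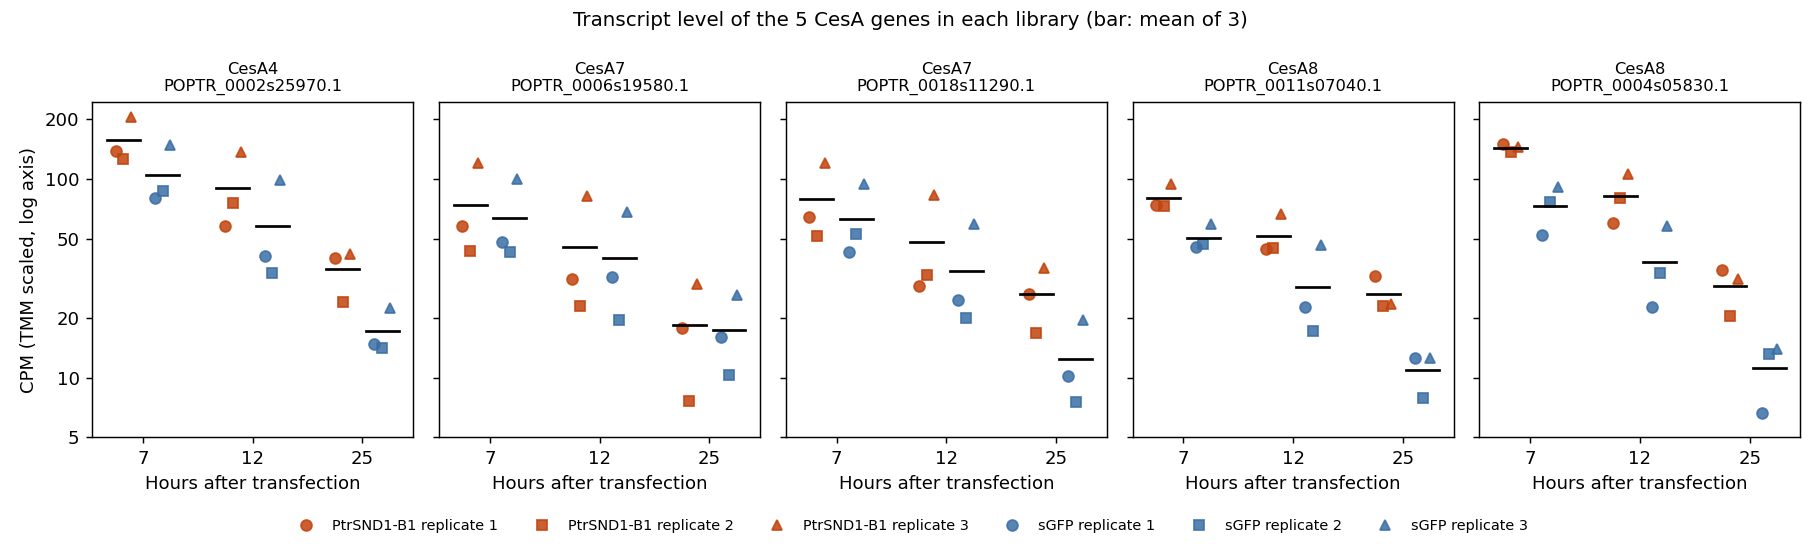
CPM of each CesA gene (log axis) against hours after transfection, with a point for every library, PtrSND1-B1 to the left of sGFP, and the mean of 3 libraries as a bar. Both CesA8 copies had PtrSND1-B1 libraries wholly above the sGFP libraries at 7 and 25 h, while the points of CesA7 POPTR_0006s19580.1 overlapped at each time.

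CesA4 had a higher level with PtrSND1-B1 in 9 of 9 same-number pairs; 2.13% of the 23777 genes tested were higher in all 9. At 7 h, CesA4 POPTR_0002s25970.1 stood at 138, 126 and 205 CPM in the PtrSND1-B1 libraries, against 80.4, 87.2 and 147 CPM in the sGFP libraries. At 12 h it had 58.2, 75.4 and 136 CPM with PtrSND1-B1 and 40.9, 33.8 and 98.9 CPM with sGFP. By 25 h the PtrSND1-B1 libraries held 40, 24 and 41.6 CPM and the sGFP libraries 14.8, 14.1 and 22.4 CPM. Replicate 3 was the highest library of every group, and the 2 constructs overlapped at 7 and 12 h. At 25 h all PtrSND1-B1 libraries lay above all sGFP libraries. The log2 difference within pairs averaged 0.60 ± 0.162 at 7 h, 0.71 ± 0.386 at 12 h and 1.02 ± 0.348 at 25 h (SD, n = 3 pairs each). In the edgeR quasi-likelihood fit that pairs libraries within a time, CesA4 rose by a log2 fold change of 0.80 averaged over the times (SE 0.0784, adjusted p = 1.5e-05), and it passed at 7, 12 and 25 h (adjusted p = 0.00805, 0.0135 and 0.00722). These calls by time held in 1 of 3 omissions of a pair at 7 h, 1 of 3 at 12 h and 2 of 3 at 25 h. The highest edgeR adjusted p was 0.0785, 0.158 and 0.299 in that order. With replicate number alone as a block the average was 0.79 (SE 0.12, adjusted p = 0.00371). Without pairing, the same average was 0.75 (SE 0.237) and did not pass (edgeR adjusted p = 0.62).

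The CesA7 copies differed in their calls on the average of the times, where the fits with a block called only POPTR_0018s11290.1 of the pair. Neither copy passed at 7 or 12 h in the paired fit. POPTR_0018s11290.1 was higher with PtrSND1-B1 in 8 of 9 pairs and POPTR_0006s19580.1 in 7 of 9. How many of all genes reached these counts of pairs was not computed. At 7 h, CesA7 POPTR_0006s19580.1 stood at 57.5, 43.4 and 119 CPM in the PtrSND1-B1 libraries, against 48.1, 42.9 and 99.4 CPM in the sGFP libraries. At 12 h it had 31.5, 23 and 82 CPM with PtrSND1-B1 and 32.2, 19.6 and 67.8 CPM with sGFP. By 25 h the PtrSND1-B1 libraries held 17.8, 7.64 and 29.7 CPM and the sGFP libraries 16, 10.3 and 25.9 CPM. Replicate 3 was the highest library in all 6 groups of POPTR_0006s19580.1 and the 2 constructs overlapped at every time, with nearly equal means at 25 h (18.4 ± 11.1 CPM with PtrSND1-B1 and 17.4 ± 7.89 CPM with sGFP, SD, n = 3 each). The log2 difference within pairs averaged 0.18 ± 0.14 at 7 h, 0.16 ± 0.164 at 12 h and -0.023 ± 0.341 at 25 h (SD, n = 3 pairs each). Its average over the times was 0.15 in the paired edgeR fit (SE 0.0629, adjusted p = 0.166), with an unadjusted 95% interval of 0.016 to 0.28. The unpaired fit gave 0.16 with a far wider interval, -0.57 to 0.88 (edgeR adjusted p = 1).

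At 7 h, CesA7 POPTR_0018s11290.1 stood at 64.2, 51.4 and 120.5 CPM in the PtrSND1-B1 libraries, against 42.6, 52.5 and 94 CPM in the sGFP libraries. At 12 h it had 28.9, 32.9 and 82.4 CPM with PtrSND1-B1 and 24.4, 20 and 59.1 CPM with sGFP. By 25 h the PtrSND1-B1 libraries held 26.4, 16.7 and 35.7 CPM and the sGFP libraries 10.2, 7.57 and 19.5 CPM. These PtrSND1-B1 and sGFP groups also overlapped at each time, at 25 h through PtrSND1-B1 replicate 2 and sGFP replicate 3. The log2 difference within pairs averaged 0.30 ± 0.312 at 7 h, 0.47 ± 0.234 at 12 h and 1.11 ± 0.241 at 25 h (SD, n = 3 pairs each). The paired edgeR fit gave POPTR_0018s11290.1 a log2 fold change of 0.64 over the times (SE 0.0762, adjusted p = 9.39e-05). By time it passed at 25 h, with 1.14 (SE 0.16, adjusted p = 0.00556), and did not at 7 h (0.30, adjusted p = 0.163) or 12 h (0.47, adjusted p = 0.078). The 25 h call held in 2 of 3 omissions of a pair (highest edgeR adjusted p = 0.284). The number block gave 0.64 (adjusted p = 0.00704) and the unpaired fit 0.62 (SE 0.298, adjusted p = 1).

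Both CesA8 copies were higher with PtrSND1-B1 in 9 of 9 pairs. At 7 h, CesA8 POPTR_0011s07040.1 stood at 74.1, 72.8 and 93.6 CPM in the PtrSND1-B1 libraries, against 45.4, 46.9 and 59.1 CPM in the sGFP libraries. At 12 h it had 44.1, 44.7 and 66.5 CPM with PtrSND1-B1 and 22.5, 17.2 and 46.2 CPM with sGFP. By 25 h the PtrSND1-B1 libraries held 32.5, 22.9 and 23.4 CPM and the sGFP libraries 12.5, 7.91 and 12.5 CPM. At 7 and 25 h every PtrSND1-B1 library of POPTR_0011s07040.1 exceeded every sGFP library, and at 12 h only sGFP replicate 3 reached into the PtrSND1-B1 range. The log2 difference within pairs averaged 0.66 ± 0.0371 at 7 h, 0.94 ± 0.418 at 12 h and 1.24 ± 0.32 at 25 h (SD, n = 3 pairs each). The paired edgeR fit gave a log2 fold change of 0.94 over the times (SE 0.0794, adjusted p = 2.95e-06), and each time passed (adjusted p = 0.00333, 0.00202 and 0.0042 at 7, 12 and 25 h). These calls by time held in 3 of 3 omissions of a pair at 7 h, 2 of 3 at 12 h and 2 of 3 at 25 h. The highest edgeR adjusted p was 0.042, 0.0566 and 0.263 in that order. In the unpaired edgeR fit POPTR_0011s07040.1 came to 0.92 (SE 0.176), just short of the threshold (adjusted p = 0.0531); without sGFP 12 h replicate 3 it was 1.09 (adjusted p = 0.00253).

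At 7 h, CesA8 POPTR_0004s05830.1 stood at 149, 136 and 145 CPM in the PtrSND1-B1 libraries, against 52.2, 76.1 and 90.9 CPM in the sGFP libraries. At 12 h it had 59.7, 79.9 and 106 CPM with PtrSND1-B1 and 22.5, 33.5 and 57.9 CPM with sGFP. By 25 h the PtrSND1-B1 libraries held 34.8, 20.4 and 31.5 CPM and the sGFP libraries 6.66, 13.1 and 14 CPM. The constructs did not overlap for POPTR_0004s05830.1 at any of the 3 times. Its PtrSND1-B1 libraries at 7 h had the smallest coefficient of variation of any CesA group, 4.78%, at 143 ± 6.84 CPM (SD, n = 3), and those of sGFP at 7 h averaged 73.1 ± 19.5 CPM. The log2 difference within pairs averaged 1.0 ± 0.442 at 7 h, 1.17 ± 0.271 at 12 h and 1.37 ± 0.869 at 25 h (SD, n = 3 pairs each). CesA8 POPTR_0004s05830.1 was the single CesA gene called in the unpaired edgeR fit, with a log2 fold change of 1.16 over the times (SE 0.201, adjusted p = 0.0257). That call was lost (adjusted p = 0.0501 to 0.0796) on leaving out any one of 11 libraries: PtrSND1-B1 7 h replicates 1 and 2, 12 h replicates 2 and 3 and 25 h replicates 1 and 3, and sGFP 7 h replicates 1 and 2, 12 h replicate 2 and 25 h replicates 1 and 2. The paired fit gave 1.24 (SE 0.122, adjusted p = 1.45e-05), and by time 0.97 at 7 h, 1.16 at 12 h and 1.60 at 25 h (adjusted p = 0.00388, 0.0054 and 0.0131). Calls by time held in 3 of 3 omissions of a pair at 7 h, 1 of 3 at 12 h and 2 of 3 at 25 h. Their highest edgeR adjusted p was 0.0453, 0.123 and 0.437 in that order.

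**Figure D2:**
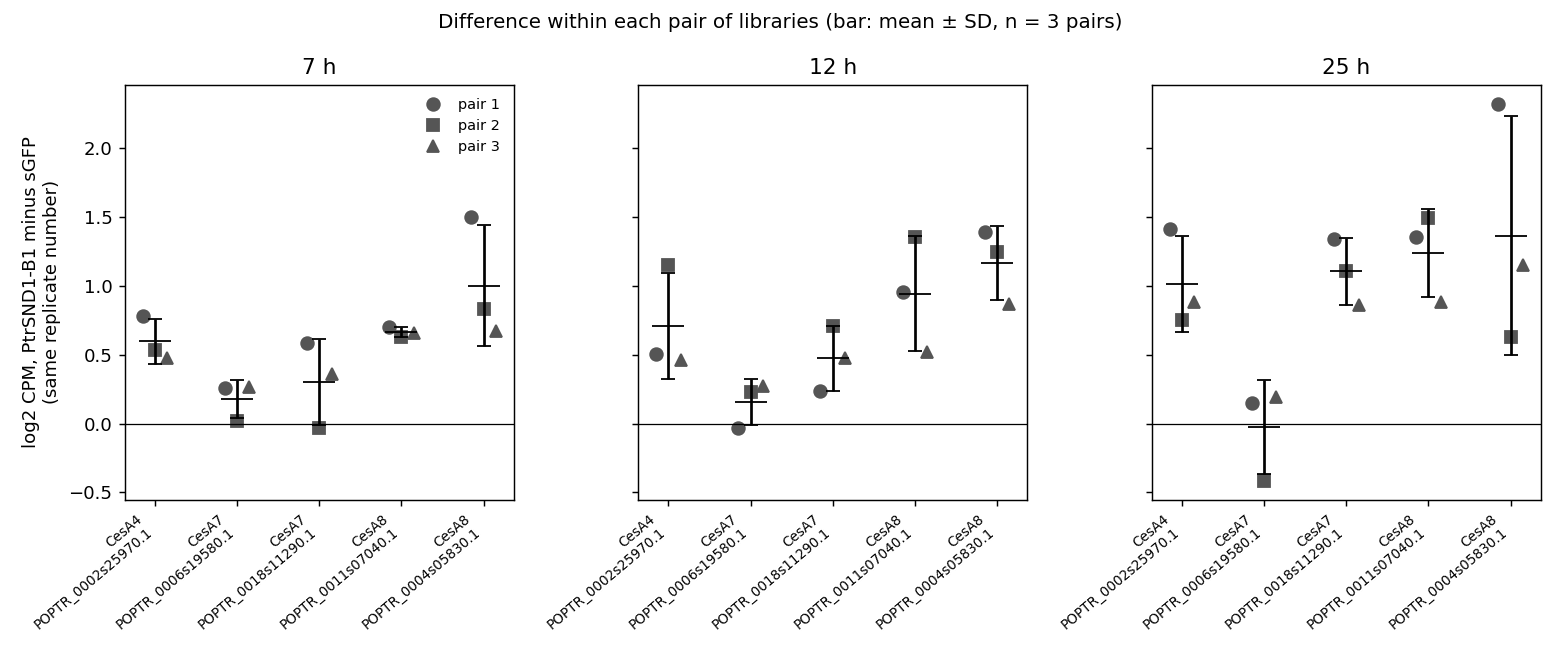
Log2 difference in CPM, PtrSND1-B1 minus sGFP, within each same-number pair of libraries, by gene and time, with mean and SD of 3 pairs. CesA4 and both CesA8 copies lie above 0 in 9 of 9 pairs, CesA7 POPTR_0018s11290.1 in 8 and CesA7 POPTR_0006s19580.1 in 7.

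Counted over the 5 genes, the unpaired edgeR fit called 1 higher on the average of the times, where 0.135% of all genes tested were called higher, and 0 at 7, 12 or 25 h, where 0.0589%, 0.00841% and 0.00421% were. At an unadjusted p under 0.05 the single times held 2, 2 and 3 of the 5, beside 540, 326 and 288 of the 23777 genes tested, in either direction. DESeq2 also called 0 at each time, where it called 0.13%, 0.0324% and 0.00807% of all genes higher, and 2 on the average (0.233%). The paired fit called 3 at 7 h, 3 at 12 h, 4 at 25 h and 4 on the average, against 1.56%, 0.488%, 0.156% and 3.91% of all genes called higher. Without the replicate 1 pair of the time the paired count was 2 at 7 h, 0 at 12 h and 0 at 25 h; without the replicate 2 pair it was 2, 1 and 4, and without the replicate 3 pair 3, 3 and 4. With the number as a block, 4 were called on the average (0.463% of all genes called higher) and 0 at 7, 12 and 25 h (0.214%, 0.0421% and 0.00841%). At these times 3, 4 and 4 had an unadjusted p under 0.05, beside 1313, 913 and 677 of all genes tested, in either direction. The median log2 fold change of the 5 in the unpaired fit was 0.58 at 7 h, 0.64 at 12 h and 1.06 at 25 h, while that of all genes tested was 0.0014, -0.0017 and -0.011. Groups that did not overlap, with PtrSND1-B1 above sGFP, were found for 2 of 5 at 7 h, 1 of 5 at 12 h and 3 of 5 at 25 h, against 3.85%, 2.13% and 1.99% of all genes.

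**Figure D3:**
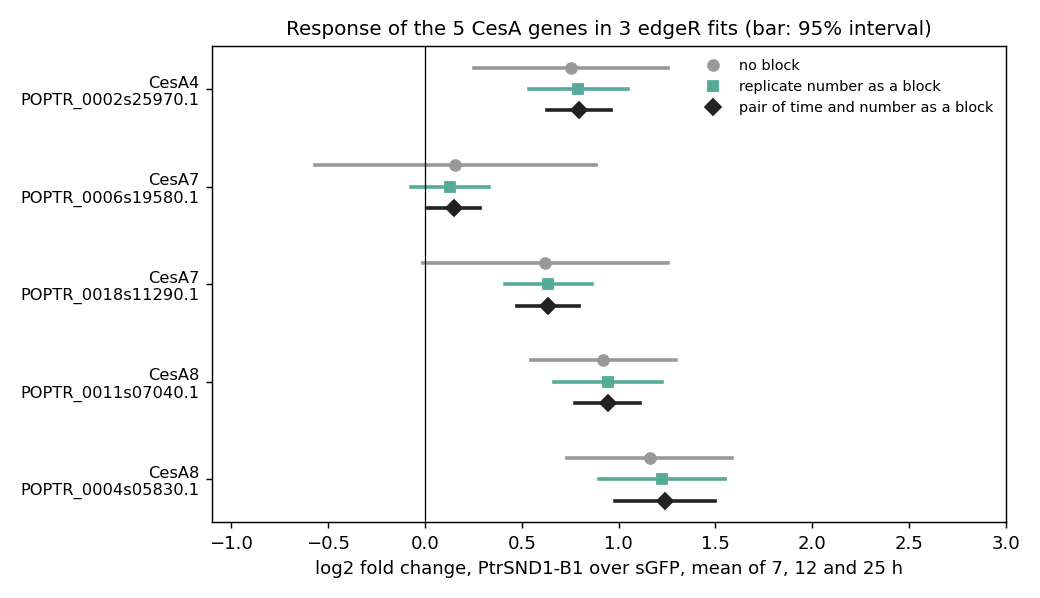
Log2 fold change of PtrSND1-B1 over sGFP with its unadjusted 95% interval for each CesA gene, averaged over the 3 times, in the edgeR fits with no block, with replicate number as a block and with each pair of time and number as a block. The estimates lie close together while the intervals narrow; for CesA8 POPTR_0004s05830.1 the average is 1.16 unpaired and 1.24 paired.

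The fold changes were larger at 25 h than at 7 h for 4 of the 5 genes in the unpaired fit, but no difference between times passed in any fit of all libraries (1 of 5 passed in the paired fit without the replicate 3 pair at 25 h). The difference between the 25 h and the 7 h effect ran between -0.15 and 0.74 on the log2 scale without pairing, with 0 of 5, and 0% of all genes, called. At an unadjusted p under 0.05 it held 0 of 5, beside 227 of the 23777 genes tested. In the paired fit the difference ran between -0.096 and 0.84, with 3 of 5 under 0.05 unadjusted, beside 1880 of all genes. Its lowest adjusted p was 0.185, for CesA7 POPTR_0018s11290.1 by edgeR. In that comparison 0.0673% of all genes tested were called. With the number as a block (0.00421% of all genes called) and by DESeq2 (0.00807%) 0 of the 5 were called as well. For CesA7 POPTR_0018s11290.1 the unadjusted 95% interval of that difference was 0.43 to 1.25 in the paired fit.

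Whether the copies of a pair responded alike was tested on their ratio within each library, which cancels library scaling. The ratio of CesA7 POPTR_0018s11290.1 to CesA7 POPTR_0006s19580.1 differed between constructs, at a log2 of 0.31 ± 0.384 with PtrSND1-B1 and -0.23 ± 0.286 with sGFP (SD, n = 9 each), a difference of 0.54 (two-sided exact permutation test exchanging constructs within times, p = 0.0065, adjusted p = 0.04 over 20 ratio tests). At 7 h the log2 ratio was 0.16, 0.24 and 0.012 with PtrSND1-B1 and -0.17, 0.29 and -0.082 with sGFP. At 12 h it was -0.12, 0.52 and 0.007 with PtrSND1-B1 and -0.40, 0.03 and -0.20 with sGFP. At 25 h it was 0.57, 1.13 and 0.26 with PtrSND1-B1 and -0.65, -0.45 and -0.41 with sGFP. The constructs overlapped at 7 and 12 h, and at 25 h they did not, with log2 ratios of POPTR_0018s11290.1 to POPTR_0006s19580.1 above 0 in each PtrSND1-B1 library and below 0 in each sGFP library. Leaving out one library gave differences of 0.43 to 0.60 with adjusted p = 0.02 to 0.0725 by the same exact permutation test; the call was lost without PtrSND1-B1 7 h replicate 1 or 2 or 12 h replicate 2, and without sGFP replicate 1 or 3 of any time.

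The CesA8 copies showed no such shift that passed. The log2 ratio of CesA8 POPTR_0004s05830.1 to CesA8 POPTR_0011s07040.1 was 0.54 ± 0.385 with PtrSND1-B1 and 0.31 ± 0.554 with sGFP (SD, n = 9 each), a difference of 0.23 (exact permutation p = 0.263, adjusted p = 0.329). At 7 h it was 1.01, 0.90 and 0.63 with PtrSND1-B1 and 0.20, 0.70 and 0.62 with sGFP. At 25 h it was 0.10, -0.17 and 0.43 with PtrSND1-B1 and -0.91, 0.72 and 0.16 with sGFP. Over both constructs the mean log2 ratio was 0.055 ± 0.561 at 25 h and 0.68 ± 0.278 at 7 h (SD, n = 6 each), and the difference of -0.62 missed the threshold over the 20 tests (exact permutation p = 0.035, adjusted p = 0.0778). It passed without sGFP 25 h replicate 2 (difference -0.75, exact permutation adjusted p = 0.0329).

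All 10 pairings of the 5 genes were then compared, 8 of them added after the data had been seen. Each of the 4 ratios with CesA7 POPTR_0006s19580.1 as denominator was higher with PtrSND1-B1 than with sGFP (adjusted p = 0.04 each by the exact permutation test over 20 tests). The log2 differences were 0.54 for its copy POPTR_0018s11290.1, 0.68 for CesA4, 0.86 for CesA8 POPTR_0011s07040.1 and 1.09 for CesA8 POPTR_0004s05830.1. These 4 ratios share a denominator, so their tests are not independent. The other 6 ratios moved by 0.14 to 0.55 in size and none passed (adjusted p = 0.0778 to 0.329), although with exchange restricted to same-number pairs CesA8 POPTR_0004s05830.1 over CesA4 (adjusted p = 0.0391) and CesA8 POPTR_0011s07040.1 over CesA7 POPTR_0018s11290.1 (adjusted p = 0.0195, exact permutation) also did. Each of the 4 calls with POPTR_0006s19580.1 was lost in 9 to 12 of 18 omissions of a single library, at adjusted p = 0.05 to 0.0725. Between 25 h and 7 h, 0 of 10 ratios passed the exact permutation test after adjustment, and 3 had an unadjusted p under 0.05. Without sGFP 25 h replicate 2, CesA4 over CesA7 POPTR_0018s11290.1 (exact permutation adjusted p = 0.0329) and CesA4 over CesA8 POPTR_0011s07040.1 (0.0444) also passed between these times, beside the CesA8 pair. Between constructs, CesA8 POPTR_0004s05830.1 over CesA4 passed without sGFP 12 h replicate 2 (exact permutation adjusted p = 0.038) or 25 h replicate 2 (0.0329), and CesA8 POPTR_0004s05830.1 over CesA7 POPTR_0018s11290.1 passed without sGFP 25 h replicate 2 (0.0387).

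**Figure D4:**
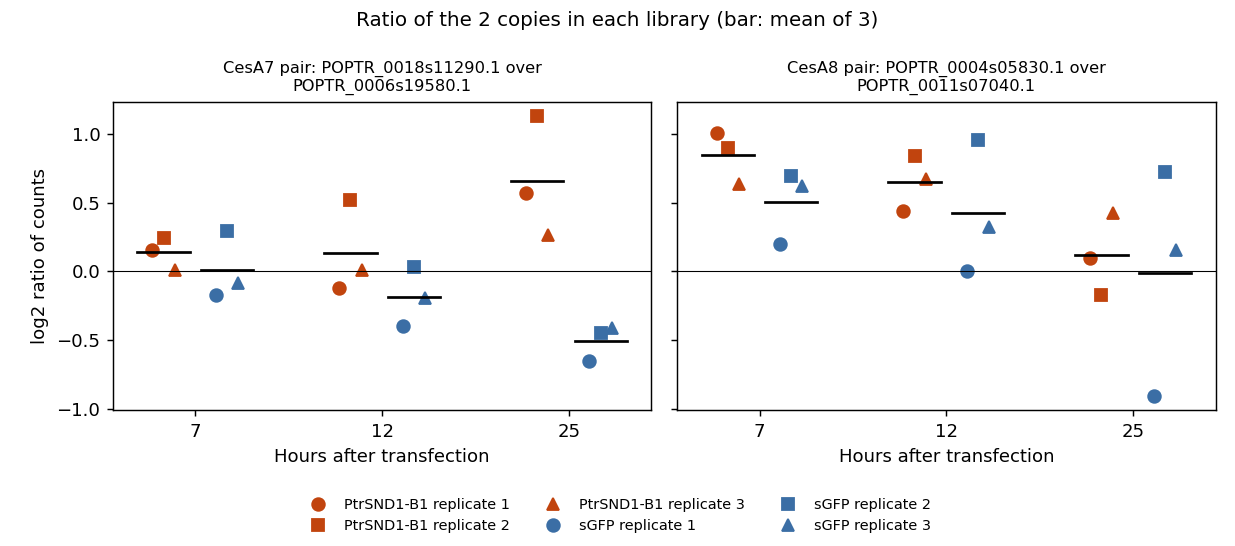
Log2 ratio of counts between the copies of CesA7 and of CesA8 in every library, by time and construct, PtrSND1-B1 left of sGFP, with group means as bars. For CesA7 the PtrSND1-B1 libraries at 25 h lie at 0.26 to 1.13 and the sGFP libraries at -0.65 to -0.41; for CesA8 the constructs overlap at each time.

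All 5 CesA genes fell in relative transcript abundance with time in protoplasts, with or without PtrSND1-B1. Between 25 h and 7 h they fell by 1.58 to 2.30 on the log2 scale with PtrSND1-B1 and by 1.85 to 2.74 with sGFP, and the 25 h libraries lay below the 7 h libraries for 5 of 5 genes under both constructs. All 5 passed in the unpaired edgeR fit in both comparisons, where 8.68% (PtrSND1-B1) and 9.21% (sGFP) of all genes tested were called lower. Libraries of 25 h lay wholly below those of 7 h for 18% of all genes with PtrSND1-B1 and 17.2% with sGFP. The median log2 fold change of the 5 was -2.0 with PtrSND1-B1, beside -0.01 over all genes, and -2.33 with sGFP, beside 0.004 over all genes. Scaling by library size alone shifted the median of all genes by -0.17 in both comparisons and left these calls as they were.

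By gene, CesA4 POPTR_0002s25970.1 averaged 35.2 ± 9.73 CPM at 25 h and 157 ± 42.5 CPM at 7 h with PtrSND1-B1 (SD, n = 3 each), which made its log2 fold change -2.15 (SE 0.423, edgeR adjusted p = 0.0029). With sGFP it averaged 17.1 ± 4.58 CPM at 25 h and 105 ± 36.7 CPM at 7 h, a change of -2.61 (SE 0.433, edgeR adjusted p = 0.00089). CesA7 POPTR_0006s19580.1 changed by -2.0 with PtrSND1-B1 (SE 0.617, adjusted p = 0.0365) and by -1.85 with sGFP (SE 0.605, adjusted p = 0.0453). The change of CesA7 POPTR_0018s11290.1 was -1.58 with PtrSND1-B1 (edgeR adjusted p = 0.0491) and -2.33 with sGFP (adjusted p = 0.00785). CesA8 POPTR_0011s07040.1 fell by 1.60 with PtrSND1-B1 (edgeR adjusted p = 0.00248) and by 2.17 with sGFP (adjusted p = 0.000367). CesA8 POPTR_0004s05830.1 had the steepest estimate of the 5 under each construct, -2.30 with PtrSND1-B1 (edgeR adjusted p = 0.000541) and -2.74 with sGFP (adjusted p = 0.000201). The calls that hung on single libraries were those of the CesA7 copies. With PtrSND1-B1, leaving out 7 h replicate 1 or 3 or 25 h replicate 1 or 2 lost POPTR_0006s19580.1 (edgeR adjusted p = 0.0538 to 0.144), and leaving out any of these or 25 h replicate 3 lost POPTR_0018s11290.1 (0.0593 to 0.185). With sGFP, POPTR_0006s19580.1 was lost (edgeR adjusted p = 0.0546 to 0.17) without any one of the 7 h libraries or 25 h replicate 1 or 2.

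The estimates of all 5 genes were below 0 in each step of time, while calls depended on the fit. With PtrSND1-B1 the later libraries lay wholly below the earlier for 2 of 5 genes at 12 h against 7 h (10.1% of all genes). At 25 h against 12 h they did so for 3 of 5 (7.8%). With sGFP this held for 0 of 5 (9.02%) and 4 of 5 (7.6%) in the same order. Between 12 h and 7 h the log2 fold changes of the 5 were -0.81 to -0.63 with PtrSND1-B1 and -0.95 to -0.68 with sGFP. Between 25 h and 12 h they were -1.49 to -0.87 with PtrSND1-B1 and -1.78 to -1.16 with sGFP. The block on replicate number takes a number to link libraries across times, which the labels do not give and which was not checked. With replicate number as a block, edgeR called 4 of 5 lower for PtrSND1-B1 at 12 h against 7 h, where 4.22% of all genes were called lower: all but CesA8 POPTR_0011s07040.1 (adjusted p = 0.0797). It called 5 of 5 for PtrSND1-B1 at 25 h against 12 h (4.68% of all genes), 5 for sGFP at 12 h against 7 h (3.56%) and 5 for sGFP at 25 h against 12 h (4.9%). The last of these counts stayed at 5 in each omission of a library, while the others depended on single libraries. For PtrSND1-B1 at 12 h against 7 h the blocked count was 0 when 7 h replicate 2 or 12 h replicate 1 or 2 was left out, 1 in the absence of 7 h replicate 1, 3 in that of 12 h replicate 3 and 4 in that of 7 h replicate 3. For PtrSND1-B1 at 25 h against 12 h it was 3 without replicate 2 or 3 of either time. For sGFP at 12 h against 7 h it was 0 when 12 h replicate 2 was left out, 1 in the absence of 7 h replicate 2, 2 in that of 12 h replicate 1 and 3 in that of 7 h replicate 1 or 3. Without the block, the single call was CesA8 POPTR_0004s05830.1 for sGFP between 25 h and 12 h (-1.78, edgeR adjusted p = 0.0331), where 0.236% of all genes were called lower. That call was lost without sGFP 12 h replicate 2 or 3 or 25 h replicate 1 or 2 (adjusted p = 0.0753 to 0.185), and without 12 h replicate 2 CesA8 POPTR_0011s07040.1 was called (edgeR adjusted p = 0.0396). DESeq2 called 3 in that step (0.962% of all genes). In the other 3 steps edgeR without the block called 0 of 5, against 0.0883% of all genes for PtrSND1-B1 between 12 h and 7 h, 0.294% for PtrSND1-B1 between 25 h and 12 h and 0.0799% for sGFP between 12 h and 7 h. An unadjusted p under 0.05 was held by 2 for PtrSND1-B1 between 12 h and 7 h, beside 3091 of the 23777 genes tested, in either direction. It was held by 4 for PtrSND1-B1 between 25 h and 12 h (3040 genes) and 3 for sGFP between 12 h and 7 h (2898 genes). DESeq2 called 0 (0.891% of all genes), 1 (0.808%) and 0 (0.907%) in these 3 steps.

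Set in order of mean CPM over the 6 groups, CesA4 and both CesA7 copies stood highest with PtrSND1-B1 at 7 h, then sGFP at 7 h, PtrSND1-B1 at 12 h, sGFP at 12 h, PtrSND1-B1 at 25 h and sGFP at 25 h. For the CesA8 copies PtrSND1-B1 at 12 h came before sGFP at 7 h. CesA8 POPTR_0004s05830.1 averaged 81.8 ± 23.1 CPM with PtrSND1-B1 at 12 h and 73.1 ± 19.5 CPM with sGFP at 7 h, with overlapping libraries (SD, n = 3 each). CesA8 POPTR_0011s07040.1 averaged 51.7 ± 12.8 CPM with PtrSND1-B1 at 12 h and 50.5 ± 7.53 CPM with sGFP at 7 h, also overlapping. Neighbours in this order overlapped in every case but 5: PtrSND1-B1 and sGFP at 25 h for CesA4 and both CesA8 copies, and PtrSND1-B1 at 12 h against PtrSND1-B1 at 7 h for both CesA8 copies. Of all genes tested, 1.99% had PtrSND1-B1 wholly above sGFP at 25 h. With PtrSND1-B1, 10.1% had the 12 h libraries wholly below those of 7 h.

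Over the 18 libraries the 5 genes resembled each other, with Pearson's r of log2 CPM between 0.76 and 0.97. These libraries share times, constructs and replicate numbers, so r is given as a description only. CesA4 was the gene most like CesA8 POPTR_0004s05830.1 among the 23776 others, and the second most like CesA8 POPTR_0011s07040.1. For CesA7 POPTR_0006s19580.1 the other CesA genes stood only at ranks 132 to 1395. The means of each time and each replicate number were then removed, with the difference between constructs left in. After this CesA4, CesA7 POPTR_0018s11290.1 and both CesA8 copies kept r of 0.86 to 0.96 with each other. Each stood within the 30 genes nearest to each of the others. These r partly restate the contrast of PtrSND1-B1 and sGFP and are not separate evidence. CesA7 POPTR_0006s19580.1 had r of 0.39 to 0.50 with these 4, at ranks 1288 to 3592. The transfected locus POPTR_0014s10060.1 had r = 0.41 with the mean profile of the 5 over all libraries and 0.85 after the removal. Its level separates the constructs, so the r after the removal largely restates their difference. It does not measure whether the CesA genes followed the level of this locus within a construct.

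**Figure D5:**
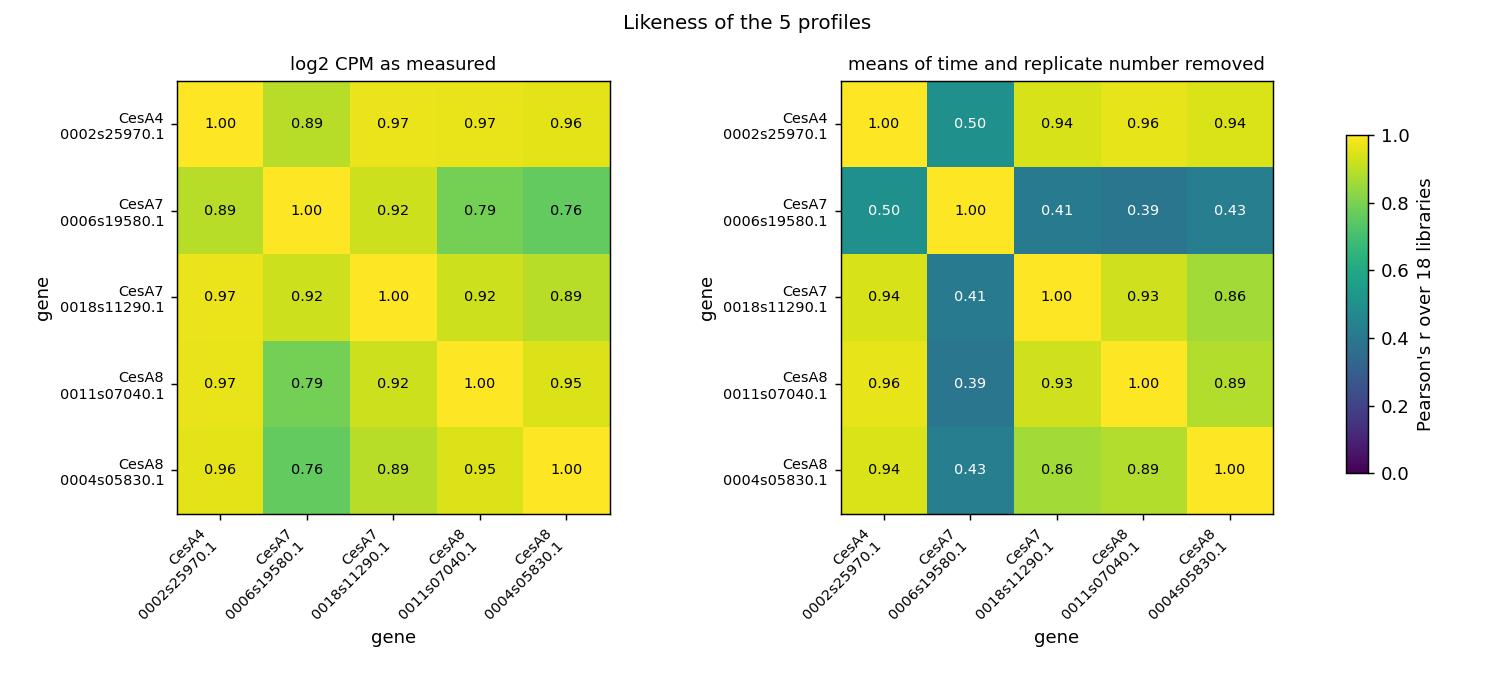
Pearson's r of log2 CPM between each 2 of the 5 CesA genes over 18 libraries, as measured and after removing the means of each time and replicate number. The difference between constructs was left in. CesA7 POPTR_0006s19580.1 keeps r of 0.76 to 0.92 in the first panel and 0.39 to 0.50 in the second.

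Outside the 5, the loci closest to their mean profile were POPTR_0001s24380.1 (r = 0.981) and POPTR_0007s04030.1 (r = 0.977), and 112 loci in all had r over 0.9. POPTR_0001s24380.1 averaged 133 ± 37.1, 73.4 ± 33.2 and 29.4 ± 10.4 CPM with PtrSND1-B1 at 7, 12 and 25 h, against 85.1 ± 37.7, 46.1 ± 25.5 and 18.9 ± 5.75 CPM with sGFP (SD, n = 3 each). After removal of time and number means, again with the difference between constructs left in, the closest were POPTR_1040s00200.1 (r = 0.929) and POPTR_0001s25580.1 (r = 0.927). In that ranking 10 loci had r over 0.9. The 10 closest of each ranking shared 2, or 20% of each list. The sources used here give these loci no name.

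No relation between the CesA differences and the level of the transfected transcript passed a test. Over the 9 pairs, the log2 CPM of POPTR_0014s10060.1 in the PtrSND1-B1 library and the log2 difference of the pair gave Pearson's r of -0.11 for CesA4, 0.12 for CesA7 POPTR_0006s19580.1, -0.39 for CesA7 POPTR_0018s11290.1, -0.23 for CesA8 POPTR_0011s07040.1 and 0.34 for CesA8 POPTR_0004s05830.1. Spearman's rho lay between -0.48 and 0.52. None passed a permutation test (adjusted p = 0.78 for each r and 0.484 to 0.912 for rho, 5 relations). The permutations exchanged all 9 pairs without regard to time or replicate number. Without the 2 pairs farthest from the median, r lay between -0.45 and 0.38. With each time centred on its own mean r was 0.40, -0.19, 0.32, 0.42 and 0.76 in the same order, and with each replicate number centred it was -0.59, 0.40, -0.76, -0.80 and -0.48. The centred r were not tested. The relation to the transfected transcript was chosen after the data had been seen, and 9 pairs leave room for a wide range of r.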

How the data were processed

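RNA-seq of 18 libraries was deposited by the authors as raw counts of reads per gene model, in whole numbers. The submitters' processing notes name TopHat and edgeR without versions; none of the sources used here gives the build, the counting tool, strandedness or the handling of multi-mapped reads, so reads shared by close copies could move between them. The first model of each of 40668 loci was used, filtered with edgeR's filterByExpr and scaled by TMM. Contrasts came from edgeR 4.0.16 (R 4.3.3) quasi-likelihood fits of 6 group means with Benjamini-Hochberg adjustment over 23777 loci, called at an adjusted p under 0.05. Alternatives were DESeq2 1.42.0, RLE scaling, library size alone, no filter, all models as rows, only the groups of a contrast, replicate number as a block, and pairs of time and number as a block (the paired fit, 6 residual degrees of freedom against 12 unpaired).

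Replicate numbers were taken to pair libraries because same-number libraries of the same time deviated together in 9 of 9 pairs (median r 0.658, all above 0.1). This comes from the data, not from the labels. The block on replicate number also links the same number across times, and that link was not checked. Ratios between genes used exact permutation tests, with adjustment over 20 tests, of which 4 had been planned; the other planned tests, of CesA shares, were not run. Log2 CPM used a prior count of 2. The scripts were tested on simulated data. For the edgeR fits these held independent libraries, so they cannot show how the paired fit behaves where libraries deviate together. The genes and lists were chosen with earlier results of these data known. All 5 genes are named; of the loci with the most similar profiles the 10 closest were ranked by r and the 2 closest of each ranking are printed, as none has a name. Lists of other wall genes and of markers, and shares of the CesA genes per length, were not used because no locus matched the RefSeq table.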

Additional observations from a re-analysis of the deposited data

How the results depend on the processing

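Blocking on the replicate number changed calls. Averaged over the times it called 4 of the 5 CesA genes higher with PtrSND1-B1 than with sGFP (0.463% of all genes tested). The paired fit called 4 (3.91%), DESeq2 2 (0.233%) and the unpaired fit 1 (0.135%). RLE scaling and no filter called 2 each, and their shares over all genes were not computed. In the time steps with PtrSND1-B1 the block called 4 lower at 12 h against 7 h (4.22%) and 5 at 25 h against 12 h (4.68%). With sGFP it called 5 lower in both steps (3.56% and 4.9%). At 7, 12 and 25 h the paired fit called 3, 3 and 4 higher (1.56%, 0.488% and 0.156%). For 25 h against 12 h DESeq2 called 1 lower with PtrSND1-B1 (0.808% of all genes) and 3 with sGFP (0.962%). A fit of only those groups called 0 with sGFP. For that fit and for the omissions of libraries or pairs, shares over all genes were not computed. Leaving out libraries, over the unpaired and blocked fits, gave 0 to 3 calls at 7 h, 0 to 3 at 12 h, 0 to 4 at 25 h and 0 to 4 on the average of the times, where 12 of 18 unpaired omissions moved the count, 11 to 0 and 1, without sGFP 12 h replicate 3, to 2. The difference between the 25 h and 7 h effects gave 0 to 1, the 1 being without the replicate 3 pair at 25 h in the paired fit. The time contrasts gave 0 to 4 (PtrSND1-B1 12 h against 7 h), 0 to 5 (25 h against 12 h), 3 to 5 (25 h against 7 h), and with sGFP 0 to 5, 0 to 5 and 4 to 5 in the same order; the blocked fit alone spanned 0 to 4 for PtrSND1-B1 and 0 to 5 for sGFP at 12 h against 7 h, and 3 to 5 for PtrSND1-B1 and 5 to 5 for sGFP at 25 h against 12 h. The CesA7 copy ratio differed by 0.43 to 0.60 between constructs and by -0.21 to 0.15 between 25 h and 7 h, and the CesA8 copy ratio by 0.077 to 0.32 and by -0.75 to -0.43. Signs of fitted fold changes and of ratio differences turned only in such omissions. Against sGFP they did so for CesA7 POPTR_0006s19580.1 at 7 h (-0.34 to 0.70), 12 h (-0.53 to 0.82), 25 h (-0.44 to 0.44) and on average (-0.0895 to 0.36). Where the blocked fit turned at 25 h, its values were -0.148 to -0.0796. For CesA7 POPTR_0018s11290.1 they turned at 7 h (-0.13 to 0.73) and 12 h (-0.15 to 1.11). Between 25 h and 7 h they turned for the CesA7 copy ratio above. The ratios of CesA8 POPTR_0011s07040.1 to POPTR_0006s19580.1 (-0.26 to 0.26) and to POPTR_0018s11290.1 (-0.075 to 0.17) turned there as well. Library size alone changed no call of a single gene, and all models as rows lost 1, CesA7 POPTR_0018s11290.1 at 25 h against 7 h with PtrSND1-B1 (edgeR adjusted p = 0.0502). The last model of a locus was not run for the ratios, since the one locus of the 5 with 2 models has the same counts in both. Shares of the 3 CesA classes were not run, since they need gene lengths. The lowest count behind a value was 21, for CesA7 POPTR_0006s19580.1 in a 25 h PtrSND1-B1 library.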

Other observations

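The spread between libraries of one group differed among the 5 CesA genes and shrank with pairing. The biological coefficient of variation fitted by edgeR without a block was 49.5% for CesA7 POPTR_0006s19580.1, 43.1% for CesA7 POPTR_0018s11290.1, 34.9% for CesA4 POPTR_0002s25970.1, 29.4% for CesA8 POPTR_0004s05830.1 and 26.1% for CesA8 POPTR_0011s07040.1, beside a common value of 29.0% over all genes. In the paired fit the same genes had 5.9%, 8.65%, 9.9%, 16.0% and 8.94%, beside 7.9% over all genes. The CesA7 copy with the widest spread unpaired thus had the narrowest once paired, and CesA8 POPTR_0004s05830.1 the widest. Its log2 difference between PtrSND1-B1 and sGFP at 25 h ran between 0.63 and 2.32 over the 3 pairs.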
